A study of Mus musculus with 3 samples.

Results

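Nuclear-encoded respiratory chain genes are the genes of the cell nucleus whose proteins make up complexes I to V of the inner mitochondrial membrane, together with cytochrome c. They were chosen here by symbol, as every row of the deposited gene table named Ndufa, Ndufb, Ndufc, Ndufs, Ndufv, Cox4 to Cox8, Uqcr, Cyc1, Cycs, Sdha to Sdhd or Atp5. The rule reads symbols alone, but it was set with earlier results of these data known. The rule found 88 of 14355 genes. Of these, 77 encode subunits of a complex, 35 in complex I, 4 in complex II, 9 in complex III, 14 in complex IV and 15 in complex V. The other 11 are cytochrome c, the assembly factors Ndufaf1 to Ndufaf7 and Atp5sl, the supercomplex factor Cox7a2l and the ATP synthase coupling factor Atp5s.

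All samples were of 1 kind: naive CD4+ T cells, taken from spleens and lymph nodes that were pooled from male and female C57BL/6 mice aged 8 to 12 weeks. The labels name no treatment and no altered gene. Live single cells carrying TCRb, CD4, CD62L and CD5 and lacking CD8, CD25 and CD44 were sorted fresh into 384-well plates, with the CD5 fluorescence of each cell recorded. CD5 is a surface protein used as a proxy for how strongly a naive T cell reacts to self-ligands. The authors placed each cell in a Low, Middle or High CD5 class, and the question here is whether respiratory chain transcripts differ between these classes and between single cells.

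Complex I (NADH dehydrogenase) and complex II (succinate dehydrogenase) pass electrons from the citrate cycle to ubiquinone, complex III hands them on to cytochrome c, and complex IV gives them to oxygen. Complexes I, III and IV pump protons, and complex V, the ATP synthase, lets them flow back to make ATP. Complex II is built of nuclear-encoded proteins alone, while the others also hold subunits encoded on the mitochondrial genome. Resting naive T cells draw on this chain for most of their ATP.

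The table held 697 cells, with 172, 201 and 324 in plates 1, 2 and 3, of which 48, 46 and 80 were Low, 75, 100 and 174 Middle and 49, 55 and 70 High. A plate is the replicate throughout (n = 3), and its total was 726230 to 1404157 transcripts counted by unique molecular identifier (UMI). T cell markers were found in 58.7% to 95.7% of cells and naive markers in 60.3% to 84.8%. Markers of other cells were found in fewer: CD8 T cell genes in up to 4.16%, B cell genes in up to 1.58%, Klrd1 of NK cells in 9.04% and Foxp3 of regulatory T cells in 8.03%, with Cst3, of myeloid cells, in 19.9%. Other markers of the same kinds were lower, with Itgam of myeloid cells in 2.01% and Il2ra of regulatory T cells in 1.87%. No values were available for Lyz2 and Csf1r of myeloid cells or Ncr1 and Klrb1c of NK cells. Cd5 mRNA followed the sorted protein in plates 1 and 3 and not in plate 2. It was 102, 288 and 51.7 counts per 1000000 UMIs (CPM) in the Low class and 683, 300 and 359 CPM in the High class of plates 1, 2 and 3. With plate 2 in, the test between classes used below did not call Cd5 itself (log2 fold change 1.70, edgeR adjusted p = 0.751), and without plate 2 it did (2.76, edgeR adjusted p = 2.32e-11). The counts called among respiratory chain genes and all genes, and the shares by complex, are therefore given also without plate 2. So are the respiratory chain genes named for their p.

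Subunit transcripts formed a ladder in which ATP synthase stood highest and complex II lowest. Levels are given as CPM, a gene's UMIs over all UMIs of a plate. Each transcript is tagged once, at its 3′ end, so levels of genes can be compared without dividing by length. In these medians each subunit gene counts once. Complex IV thus includes the isoform genes Cox6a2, Cox6b2 and Cox7a1, at 0, 1.17 and 1.61 CPM. Subunit c of complex V enters by each of Atp5g1, Atp5g2 and Atp5g3. Medians with 1 gene per subunit were not computed. The median level per subunit of complex V was 198, 201 and 210 CPM in plates 1, 2 and 3. It was 142, 137 and 136 CPM for complex IV, 106, 101 and 94.7 CPM for complex III, 77.1, 71.8 and 65.5 CPM for complex I, and 64.7, 64.7 and 61.6 CPM for complex II. The order V, IV, III, I, II held in each of the 3 plates, and no ranges of neighbouring complexes overlapped, though complexes I and II came within 1 CPM of doing so. With all matches of the rule in place of subunits alone, complex I had 58.7 CPM and stood below complex II (63.7 CPM). Subunits within a complex differed far more than complexes did: from 25.8 CPM (Ndufs8) to 176 CPM (Ndufa6) in complex I and from 80.2 CPM (Atp5k) to 387 CPM (Atp5h) in complex V. Together the 88 genes took 0.959%, 1.05% and 0.972% of the UMIs of plates 1, 2 and 3. Their median level was 89.4 CPM, against 13.1 CPM over the 13959 genes of the table with a count.

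**Figure D1:**
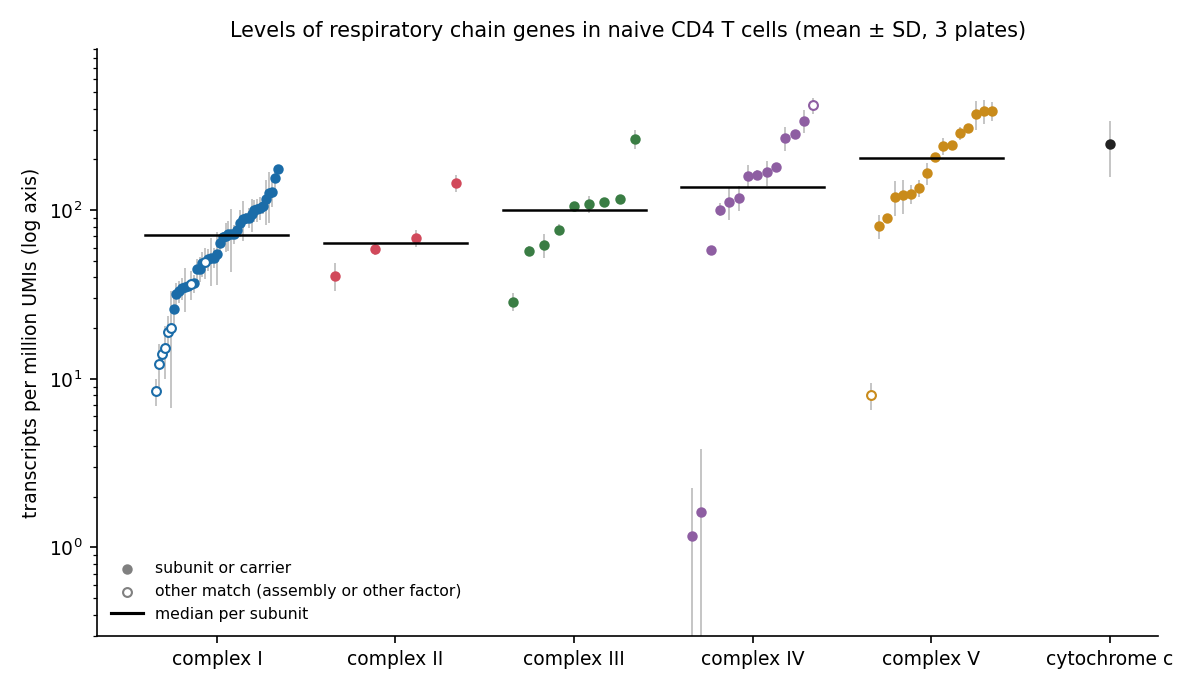
Mean level of each gene in CPM on a log axis, with the SD over 3 plates as a grey bar, by complex; filled points are subunits or cytochrome c, open points other matches of the rule, and black lines the median per subunit. Complex V has the highest line and complex II the lowest, the low filled points of complex IV are Cox6b2 and Cox7a1, their SD bars run below the axis, and Cox6a2, at 0, is not drawn.

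Next come the most abundant genes of each complex. In complex V these were Atp5h, subunit d of the stalk that holds the enzyme still, at 402, 428 and 331 CPM in plates 1, 2 and 3, and Atp5g2, which encodes subunit c of the rotating ring, at 321, 444 and 397 CPM. In complex IV, Cox7a2l, classed here as a factor for joining complexes III and IV into supercomplexes, had 401, 470 and 383 CPM. This was the highest mean of all 88. Whether its protein does this in cells of these mice was not examined. Cox8a, a small accessory subunit, had 375, 278 and 363 CPM. Atp5g2 exceeded Atp5h in plates 2 and 3 and not in plate 1, while Cox7a2l was above Cox8a in each plate. In complex III, Uqcrh, the hinge protein next to cytochrome c1, had 226, 292 and 272 CPM. Uqcrfs1, the Rieske iron-sulfur protein, had 120, 119 and 112 CPM, well under Uqcrh in each plate. In complex II, Sdha, the flavoprotein that oxidises succinate, had 127, 157 and 150 CPM, and the iron-sulfur subunit Sdhb had 73.0, 73.6 and 59.1 CPM. Sdha thus stood above the other 3 subunits of its complex, which had 40.9 to 68.6 CPM on average. In complex I the leaders were the accessory subunits Ndufa6, at 169, 176 and 183 CPM, and Ndufa3, at 132, 176 and 159 CPM. Its 7 core subunits had a median of 68.3 CPM ± 4.8 (SD, n = 3 plates) and its 28 accessory subunits 72.0 CPM ± 7.4, a gap within the spread between plates. In complex V the 8 core subunits had a median of 264 CPM ± 25 and the 7 accessory subunits 143 CPM ± 17.

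The order of the 77 subunit genes was much the same in the plates, with Spearman correlations over genes of 0.927, 0.951 and 0.956 between pairs of plates. These are descriptions over genes, which are not independent replicates. Level and coding length had a Spearman correlation of -0.09 over the 76 subunit genes with a length. Counts of genes with near-identical copies are uncertain, since no source used here says how reads from such copies were assigned. Atp5c1, Atp5k, Atp5l, Cycs, Ndufab1 and Uqcrh each have 1 or 2 pseudogenes named after them in the GENCODE M21 annotation, none with a row in the table. Pseudogenes under other names were not searched for, so copies of the remaining genes are not excluded.

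Matches that are no subunit were mostly rare. The assembly factors, which help build complex I and are not part of it, had a median of 17.3 CPM ± 4.6 (SD, n = 3 plates), from 8.44 CPM for Ndufaf2 to 49.1 CPM for Ndufaf4. Atp5sl had 36.4 CPM and Atp5s 7.98 CPM. Ndufaf1 differed most over plates, with 17.9, 34.1 and 7.83 CPM. Cox7a2l and Cycs, in contrast, were among the 11 most abundant of the 88.

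Where a subunit has tissue-specific isoforms, naive CD4 T cells held the common form almost alone. Cox6a1 had 917 UMIs in all and Cox6a2, the heart and muscle form, had 0 in 697 cells. The 95% exact binomial interval allows a share of up to 0.528% of cells with a UMI. Cox6b1 had 557 UMIs and the testis form Cox6b2 had 4, or 0.713% of the pair (95% exact binomial interval 0.195 to 1.82, covering counting error only, as do all such intervals and limits here). Of the Cox7a family, Cox7a1, the muscle form, had 4 UMIs, against 326 for Cox7a2 and 1352 for Cox7a2l. Subunit c of ATP synthase was different: its 3 genes, whose mature proteins are the same, were all detected. Atp5g2 made up 45.7%, 52.2% and 49.9% of their UMIs in plates 1, 2 and 3, Atp5g3 made up 41.0%, 37.9% and 38.5%, and Atp5g1 made up 13.3%, 9.83% and 11.6%. The order was the same in 3 of 3 plates. Within the CD5 classes Atp5g1 had 6.66% to 12.9% in Low and 9.78% to 15.7% in High sums, ranges that overlap, and Atp5g3 overtook Atp5g2 in the Low sum of plate 1.

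The promoters of these 3 genes are shown because they encode 1 protein at levels of 89.9 CPM ± 5.6 (Atp5g1), 387 CPM ± 62 (Atp5g2) and 306 CPM ± 17 (Atp5g3). Sequences are RefSeq's, on GRCm38.p6, 5′ to 3′ on the gene's strand, and the table held a promoter for 74 of the 88 genes. Among those not matched were Atp5a1, Cox4i1, Cox6c, Cyc1, Sdhc, Uqcrb, Uqcrc2 and Uqcrq. Capitals mark a match, on either strand, to the NRF1 motif (GCGCA, any base, then GCGC), NRF1 being a transcription factor known for binding respiratory chain promoters. The first 3 stretches are the 150 bases before the first listed start site, at chr11:96075632-96075781, chr15:102671048-102671197 and chr2:73911327-73911476, all on the minus strand. The 30 bases of the fourth follow the start site of Atp5g3 closely, at chr2:73911296-73911325. The last holds the 120 bases before the start of Sdha, at chr13:74350241-74350360 on the minus strand, shown for its 3 matches.
Atp5g1: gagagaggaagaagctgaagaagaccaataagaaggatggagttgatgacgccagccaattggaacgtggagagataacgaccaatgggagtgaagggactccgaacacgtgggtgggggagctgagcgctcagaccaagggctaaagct
Atp5g2: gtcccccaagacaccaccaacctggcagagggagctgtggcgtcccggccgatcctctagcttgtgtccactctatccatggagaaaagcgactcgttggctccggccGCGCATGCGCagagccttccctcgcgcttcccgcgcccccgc
Atp5g3: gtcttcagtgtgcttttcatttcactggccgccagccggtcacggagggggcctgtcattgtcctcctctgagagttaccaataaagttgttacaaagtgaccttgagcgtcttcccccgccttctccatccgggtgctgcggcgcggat
Atp5g3, after the start: agagccgcaccGCGCTTGCGCgcccagccc
Sdha: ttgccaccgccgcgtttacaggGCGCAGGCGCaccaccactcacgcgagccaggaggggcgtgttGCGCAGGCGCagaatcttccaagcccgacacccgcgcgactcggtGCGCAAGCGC

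Of the 74 promoter windows, each from 250 bases before to 50 bases after the start site, 17 held the NRF1 motif, or 23.0%. Of the 3887 genes tested for CD5 that had a window, 13.5% held it, and of all 27025 genes with a window 4.78% did. Only the first listed window of each gene was searched, so other start sites of a gene are left out. The GABPA motif CCGGAAG, of the ETS factors, was in 16 of the 74 (21.6%), against 23.5% and 9.12%. The YY1 motif AAGATGGC, for a zinc finger factor, was in 10 (13.5%), against 5.97% and 2.88%. Both strands were searched, matches of different motifs overlapped in none of the 74 windows, and a match is a description of the letters and not a bound site. The matches to YY1 lay close together: 9 of 10 began 20 to 40 bases after the start site, against 36.0% of 239 such matches in the tested genes. For NRF1, 2 of 23 matches began there, and for GABPA 2 of 19. The range of 20 to 40 bases was chosen after the positions were seen. AAGATGGC holds ATG, the letters of a start codon. Whether the 9 matches lie at translation starts was not examined. Of these 9, 5 are shown by 30 bases around the match, in capitals, at chr5:145191500-145191529 (minus strand), chr7:3617384-3617413 (plus), chr6:126849097-126849126 (minus), chr3:51408915-51408944 (minus) and chr10:80249462-80249491 (plus).
Atp5j2: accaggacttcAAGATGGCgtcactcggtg
Ndufa3: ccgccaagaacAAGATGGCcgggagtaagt
Ndufa9: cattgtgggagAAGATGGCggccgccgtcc
Ndufc1: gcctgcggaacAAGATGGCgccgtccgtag
Ndufs7: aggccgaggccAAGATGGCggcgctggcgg

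Transcripts from the mitochondrial genome outnumbered the nuclear ones of the same complex. For each nuclear subunit UMI of complex I there were 15.7, 11.2 and 15 mitochondrial UMIs in plates 1, 2 and 3. The ratio was 19.4, 11.7 and 16.7 for complex III, 19.5, 19.6 and 19.2 for complex IV and 12.4, 4.66 and 10.8 for complex V. Plate 2 was thus the lowest for complexes I, III and V and not for complex IV. In plate 2 the mitochondrial subunits of complex V, mtAtp6 and mtAtp8, had 16274 and 267 CPM, against 36761 and 2072 CPM in plate 1 and 32187 and 1654 CPM in plate 3. These genes overlap on the mitochondrial genome, so their counts are uncertain. By CD5 class the ratio for complex I was 13.7 ± 2.9 in Low and 13.5 ± 2.8 in High cells (SD, n = 3 plates). It was 19.5 ± 2.1 and 18.9 ± 0.38 for complex IV, and 9.13 ± 3.7 and 9.56 ± 4.2 for complex V. These SDs are over plates within a class and leave out the pairing. For complex III the ratio was 19.4, 11.4 and 15.3 in Low and 20.3, 11.2 and 18.8 in High cells of plates 1, 2 and 3. Complex III was thus higher in High cells of plates 1 and 3 and not of plate 2.

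Respiratory chain transcripts as a whole took the same share of UMIs in Low and High cells within the spread between plates. The 88 genes took 0.986%, 1.06% and 0.984% of UMIs in the Low class of plates 1, 2 and 3 and 0.933%, 1.12% and 0.953% in the High class. The log2 ratio of High to Low was -0.08, 0.08 and -0.05, or -0.02 ± 0.08 (SD, n = 3 plates), and -0.06 ± 0.02 without plate 2. It was 0.02 ± 0.12 for complex I, -0.10 ± 0.13 for complex III, 0.05 ± 0.07 for complex IV and -0.06 ± 0.09 for complex V, so the sign differed between plates in each of these but complex V. Without plate 2 these values were -0.04, -0.17, 0.06 and -0.09. Complex II had the mean furthest from 0 and the widest spread, with -0.64, 0.03 and -0.17 in plates 1, 2 and 3. Its mean was -0.26 ± 0.35, and -0.40 ± 0.33 without plate 2. With quartiles of CD5 set within each plate the complex II values were -0.46, -0.12 and -0.31 (mean -0.29 ± 0.17). As means of the cells' shares they were -0.46, -0.05 and -0.27 (mean -0.26 ± 0.20). Its 4 genes had 75 UMIs in the Low and 46 in the High sum of plate 1, and among cells thinned to 1 depth its mean was 0.04. The classes also differed in depth, with a median of 4200, 4987 and 4604 UMIs per cell in Low and 2527, 5401 and 3688 in High cells of plates 1, 2 and 3. Among cells thinned to 1 depth the means of the others were 0.01 for complex I, -0.09 for complex III, 0.09 for complex IV, -0.17 ± 0.12 for complex V and -0.04 for all 88 genes. Shares summed over these genes were given no test.

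**Figure D2:**
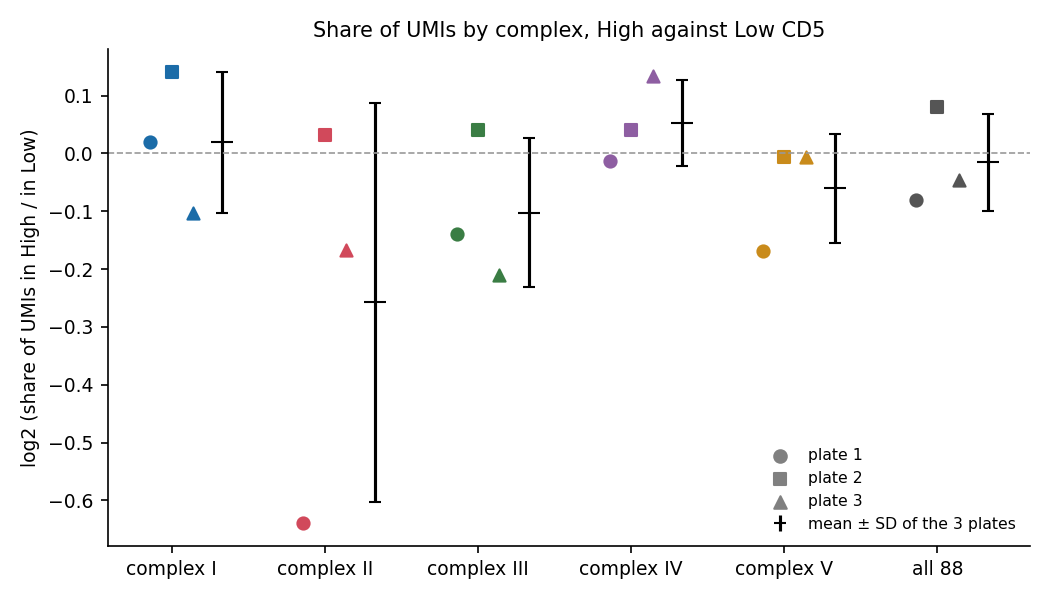
Log2 ratio of the share of UMIs in High to that in Low CD5 cells for each complex and for all 88 genes; symbols are plates and bars the mean ± SD of 3 plates. The value for all genes was -0.02 ± 0.08, and complex II had the widest spread, from -0.64 in plate 1 to 0.03 in plate 2.

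Gene by gene, no respiratory chain gene passed the test between the High and Low classes. Counts were summed over the cells of each plate and class and tested over all genes with edgeR's quasi-likelihood test, the plate as a block, at a Benjamini-Hochberg adjusted p of 0.05. Of 77 respiratory chain genes with enough counts 0 passed, and over all 4813 genes tested 3 did (0.0623%). An unadjusted p under 0.05 was found for 1 of the 77, against 6.17% of all genes, and the DESeq2 Wald test called 0 of them as well. Without plate 2 the counts were 0 of these genes and 22 of all genes tested. The median log2 fold change was -0.01, against 0.00 over all genes, with 38 of 77 above 0, against 50.3%. Complex I had 16 of 36 above 0, complex II 2 of 4, complex III 4 of 9, complex IV 8 of 12 and complex V 7 of 15. The 95% interval of the fold change stayed within a 2-fold change in either direction for 44 of the 77 and within a 1.5-fold change for 10. For the others the interval reached beyond a 2-fold change, so a change of that size was not excluded by these counts. The 11 genes not tested were Atp5s, Cox6a2, Cox6b2, Cox7a1, Ndufs8 and the assembly factors Ndufaf1, Ndufaf2, Ndufaf3, Ndufaf5, Ndufaf6 and Ndufaf7.

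**Figure D3:**
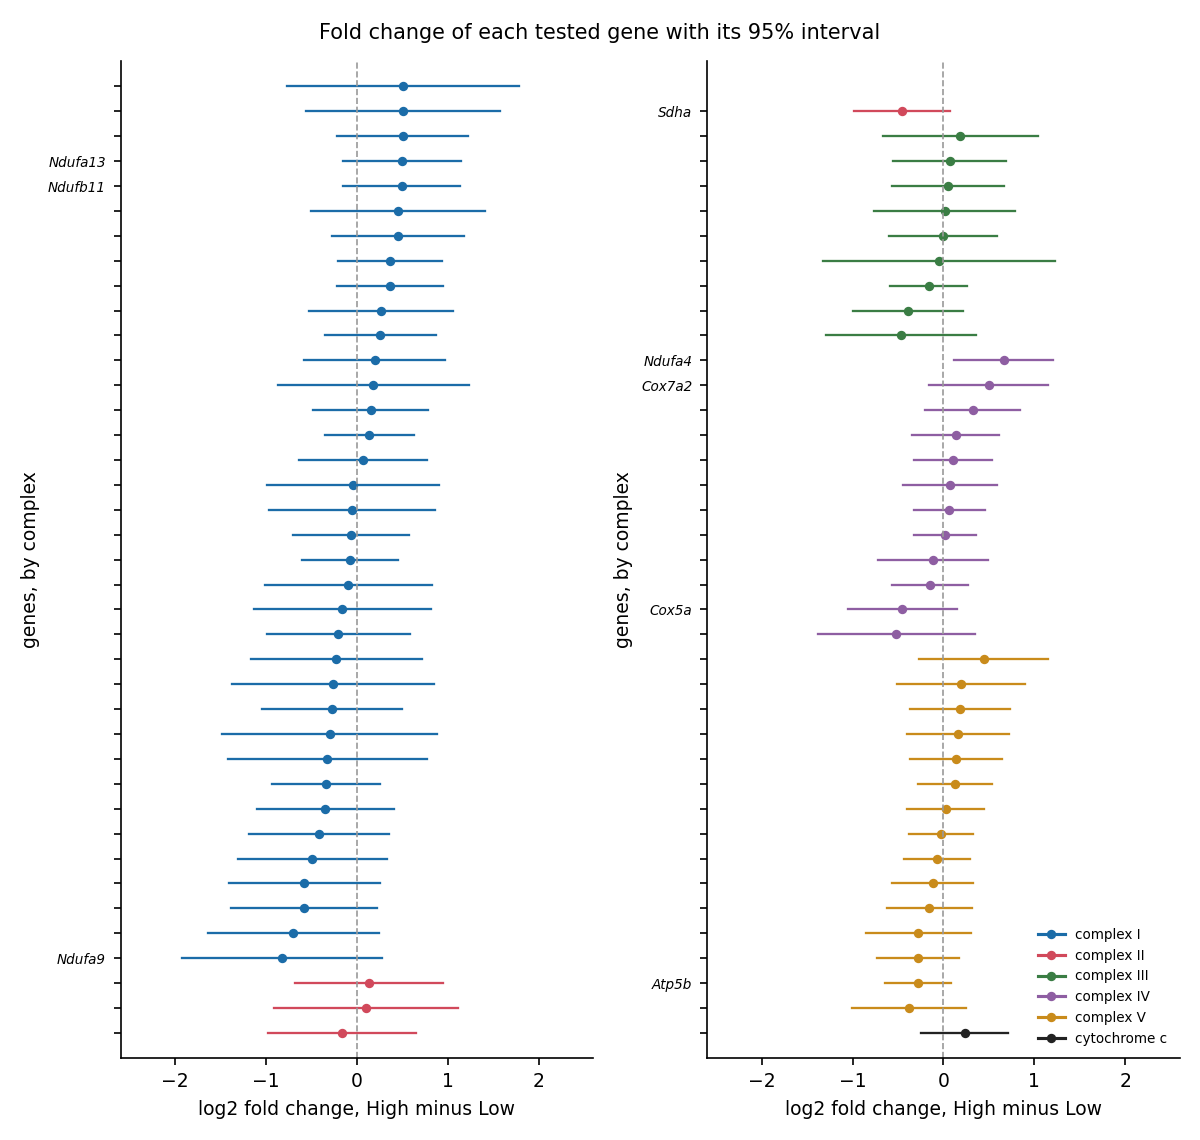
Log2 fold change (High minus Low CD5) of the 77 tested genes with its 95% interval from edgeR, ordered within each complex, with names for the 4 genes of smallest p in each direction. The interval excluded 0 for Ndufa4 alone, before adjustment, and 38 of 77 values lie above 0.

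The smallest p belonged to Ndufa4, a subunit of complex IV once assigned to complex I, which lies on chromosome 6 at 11900292 to 11907497 (GRCm38, minus strand). In plates 1, 2 and 3 it had 168, 111 and 89.1 CPM in Low, 207, 157 and 205 CPM in Middle and 201, 148 and 214 CPM in High cells, with CPM here scaled by edgeR's normalization factors. High was above Low within each plate, and the groups overlapped because Low of plate 1 lay above High of plate 2. The log2 fold change was 0.66 (95% interval 0.12 to 1.21, SE 0.27) and the edgeR adjusted p was 0.751 (unadjusted 0.0183). Without plate 2 it was 0.76 (edgeR adjusted p = 0.668), without plate 3 it was 0.33, and in cells thinned to 1 depth it was 1.21 (edgeR adjusted p = 0.249).

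The 3 other genes of smallest p on the higher side also failed to pass. Cox7a2, a small subunit of complex IV, had 91.4, 70.8 and 89.1 CPM in Low and 146, 115 and 97.9 CPM in High cells of plates 1, 2 and 3, which did not overlap (log2 0.50, SE 0.33, edgeR adjusted p = 0.912). The log2 fold change of Cox7a2 was 0.39 without plate 2 and 0.21 in thinned cells. Ndufa13, an accessory subunit of complex I also known as GRIM-19, had 66.0, 97.4 and 103 CPM in Low and 81.3, 167 and 131 CPM in High cells. These overlapped, with High above Low in each plate (log2 0.50, SE 0.32, edgeR adjusted p = 0.907). For Ndufa13 it was 0.30 without plate 2 and 0.86 in thinned cells. Ndufb11, an X-linked accessory subunit of complex I, had 66.0, 97.4 and 109 CPM and 103, 193 and 102 CPM, so plate 3 went the other way (log2 0.49, SE 0.32). For Ndufb11 it was 0.17 without plate 2 and 0.84 without plate 3.

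On the lower side the leading gene was Sdha, on chromosome 13 at 74322254 to 74350280, the same subunit whose promoter is printed above. It had 183, 195 and 218 CPM in Low, 116, 172 and 125 CPM in Middle and 119, 144 and 170 CPM in High cells of plates 1, 2 and 3. No Low sum overlapped the Middle or High sums. The log2 fold change was -0.46 (95% interval -0.99 to 0.07, SE 0.26, edgeR adjusted p = 0.877), -0.48 without plate 2 and -0.20 in cells thinned to 1 depth. The other 3 subunits of complex II did not share this, with log2 fold changes of -0.17 for Sdhb, 0.13 for Sdhc and 0.10 for Sdhd. The difference between these genes was not tested.

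Atp5b, the catalytic beta subunit of ATP synthase, had 406, 518 and 405 CPM in Low and 255, 493 and 355 CPM in High cells, lower in each plate with groups that overlapped (log2 -0.28, SE 0.18, edgeR adjusted p = 0.907). Its log2 fold change was -0.13 without plate 1, -0.41 without plate 2 and -0.14 in thinned cells. Cox5a of complex IV had 203, 164 and 109 CPM and 119, 92.6 and 123 CPM, lower in plates 1 and 2 only (log2 -0.45, SE 0.30). For Cox5a it was -0.29 without plate 1 and without plate 2, -0.81 without plate 3 and 0.02 among cells thinned to 1 depth. Ndufa9, an accessory subunit of complex I, had 55.8, 48.7 and 37.4 CPM and 21.7, 33.3 and 21.8 CPM, without overlap (log2 -0.82, SE 0.55, edgeR adjusted p = 0.912). It ranked 70 in level among the 88 genes, its 95% interval was -1.93 to 0.28, and without plate 2 it had -1.05.

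In all, 2 of the 77 genes had every High sum above every Low sum, Cox7a2 and Ndufs3, against 4.32% of all genes tested. The reverse held for 4, Atp5l, Ndufa9, Ndufb6 and Sdha, against 3.84%. Atp5l, subunit g of ATP synthase, is named here after its values were seen, because its plates lay close together within each class. It had 254, 235 and 242 CPM in Low, 306, 286 and 297 CPM in Middle and 211, 204 and 189 CPM in High cells of plates 1, 2 and 3. Its 3 classes did not overlap, with Middle the highest. How many of all genes separate in this way was not counted. High against Low, Atp5l had a log2 fold change of -0.28 (SE 0.23, edgeR adjusted p = 0.946).

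Over the whole range of CD5 the result was the same. Cells of each plate were summed in 4 bins of rising CD5, and slopes are log2 changes per doubling of fluorescence. Of 77 genes tested 0 passed, against 3 of 5019 genes overall (0.0598%), and 1 had an unadjusted p under 0.05, against 4.82%. The DESeq2 Wald test again called 0. Without plate 2 the counts were 0 of these genes and 18 of all genes tested. The median slope was -0.00 and 37 of 77 slopes were above 0, against 49.9% of all genes. Slopes above 0 numbered 19 of 37 in complex I, 0 of 4 in complex II, 3 of 8 in complex III, 8 of 12 in complex IV and 6 of 15 in complex V. In complex II the slopes of Sdhb (-0.07, SE 0.15), Sdhc (-0.00, SE 0.20) and Sdhd (-0.01, SE 0.19) were each smaller than their SE. Sdha had the smallest p, with -0.21 per doubling (SE 0.10, edgeR adjusted p = 0.997, unadjusted p = 0.0431), its mean going from 191 CPM ± 28 in the lowest to 130 CPM ± 17 in the highest bin (SD, n = 3 plates). Without plate 2 the slope was -0.25. Atp5b had -0.13 (SE 0.07), with -0.08 without plate 1 and -0.17 without plate 2. On the higher side Atp5k, subunit e of ATP synthase, had 0.23 (SE 0.13), from 70.5 CPM ± 15 to 107 CPM ± 27, with 0.27 without plate 2 and 0.08 in thinned cells. Cox7b of complex IV had 0.16 (SE 0.10), with 0.11 without plate 2.

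Genes that work beside the respiratory chain did not pass the test either. Of the protein genes of the mitochondrial genome 0 of 12 tested passed between High and Low, and 7 were above 0. The smallest p there was that of mtNd5, a core subunit of complex I, at a log2 fold change of 0.22 (SE 0.07, edgeR adjusted p = 0.366), followed by mtCo3 at 0.06. In the trend mtNd5 had 0.09 and mtNd4l 0.06 per doubling. Of the assembly genes 0 of 17 passed and 7 were above 0, with Lrpprc, a binder of mitochondrial mRNAs, at -0.83 (SE 0.39) and Mnf1 at 1.06 (SE 0.61). In the trend Lrpprc had -0.30 and Atpaf2, a chaperone of ATP synthase assembly, -0.39. Of the genes that control mitochondrial transcription 0 of 9 passed and 4 were above 0. Pprc1, a coactivator related to PGC-1, had -1.16 (SE 0.56) and Polrmt, the mitochondrial RNA polymerase, 0.51 (SE 0.67). In the trend Pprc1 had -0.56 and Yy1 -0.10. Of the mitochondrial ribosome genes 0 of 42 passed and 20 were above 0, with Mrpl15 at -0.87 and Mrpl13 at -0.88, and in the trend Mrpl13 at -0.44 and Mrpl10 at -0.29. Of the citrate cycle genes 0 of 11 passed and 5 were above 0. Ogdh, a subunit of the oxoglutarate dehydrogenase complex, had 350 CPM ± 87 in Low and 216 CPM ± 25 in High cells (log2 -0.70, SE 0.23, edgeR adjusted p = 0.557), and Suclg2 had 1.17 (SE 0.65). In the trend Ogdh had -0.26 and Idh3a -0.34. In the trend 0 genes of any of the 5 lists passed.

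From cell to cell, most respiratory chain genes varied less than other genes of the same level. For this, cells were thinned at random to 2118 UMIs, which 557 cells reached, and the variance-to-mean ratio was compared with a smooth trend over the genes that averaged 0.05 UMIs or more. Counting alone gives a ratio of 1. Of the 73 genes measured in all 3 plates 18 lay above the trend, or 24.7%, against 48.0% of 4130 genes. In every plate, 31 lay below it, or 42.5%, against 22.7%. The median residual was -0.18, -0.11 and -0.14 on the log2 scale in plates 1, 2 and 3, against -0.04, -0.03 and -0.02 for all genes. Genes for cytosolic ribosomal proteins, as a comparison, had a median of -0.20 over 77 genes. By complex, 7 of 32 lay above the trend in complex I, 0 of 4 in complex II, 3 of 9 in complex III, 4 of 12 in complex IV and 3 of 15 in complex V. Those below it in all 3 plates were 10, 0, 5, 8 and 8 of the same genes, and the median residual ran from -0.05 (III) to -0.21 (IV). Differences between complexes were not tested. Over cells thinned to 4241 UMIs the median of all members was -0.25 (79 genes), and without thinning it was -0.32 (80 genes), settings that also change which cells and genes enter.

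**Figure D4:**
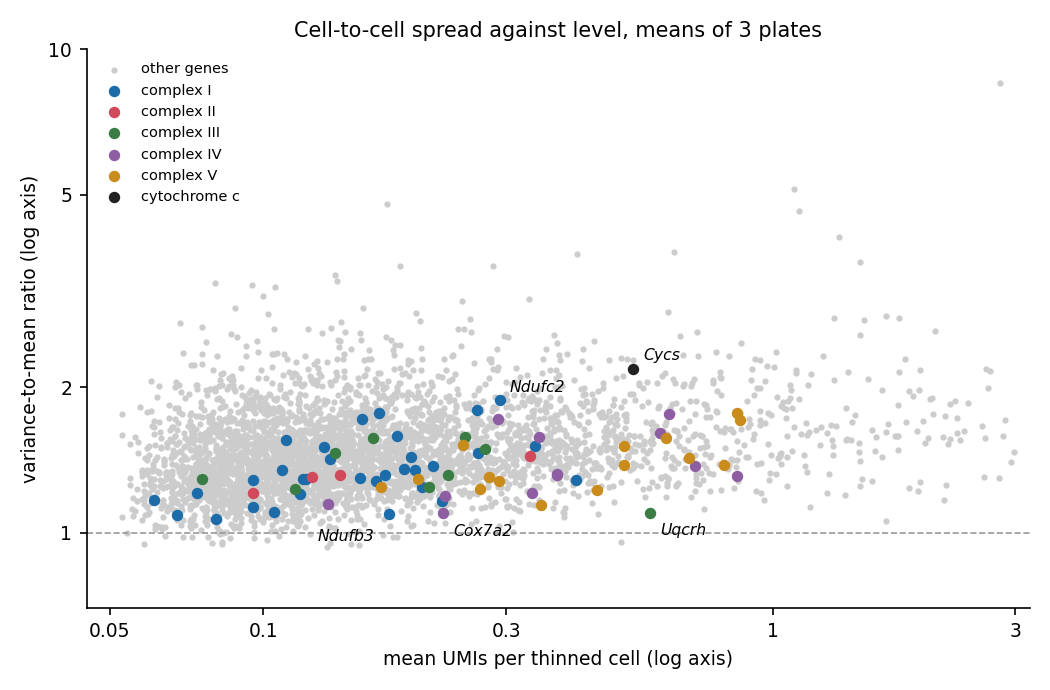
Variance-to-mean ratio against mean UMIs per cell thinned to 2118 UMIs, both on log axes and as means of 3 plates; grey points are other genes, genes with a mean over 3 or a ratio over 10 lie outside the axes, and the dashed line at 1 is the ratio that counting alone gives. Cycs lies at 2.19 and Uqcrh, at nearly the same mean, at 1.1.

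Uqcrh, Ndufb3 and Cox7a2 were the most even from cell to cell. Uqcrh had ratios of 1.1, 1.15 and 1.06 in plates 1, 2 and 3, close to counting alone. Ndufb3, an accessory subunit of complex I, had 0.813, 1.27 and 1.21, and Cox7a2 had 1.28, 0.938 and 1.08. Their mean residuals were -0.51, -0.44 and -0.43, and the plates differed more for Ndufb3 and Cox7a2 than for Uqcrh.

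Cytochrome c stood at the other end. Cycs, which carries electrons from complex III to complex IV and starts the caspase cascade when it leaves mitochondria, had ratios of 2.21, 2.19 and 2.15, with a mean residual of 0.49 ± 0.07 (SD, n = 3 plates), the highest of the 73 genes. Of all genes in the same plate, 84.5% to 93.2% had a residual no higher, so it was not among the top 5% in any plate. Next came Ndufc2, with 1.70, 2.13 and 1.82, and Ndufb4, with 2.31, 1.48 and 1.38, which was high in plate 1 alone. Cycs also differed most between plates among the abundant genes, with 147, 270 and 321 CPM. Its gene lies on chromosome 6 at 50562563 to 50566538 and has named pseudogenes, as does Uqcrh.

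Uqcrh, the most even of the genes measured, has a mean like that of Cycs and shows the range of spread at that level. At the same depth Cycs had a mean of 0.533 UMIs per cell and Uqcrh 0.574. Cycs was at 3 or more UMIs in 35 of the 557 cells (6.28%) and Uqcrh in 17 (3.05%). Cycs was at 0 in 77.4%, 68.8% and 61.1% of the cells of plates 1, 2 and 3, and Uqcrh in 61.3%, 51.7% and 60.3%. Cycs had the lower mean in plates 1 and 2 (0.379 against 0.508 and 0.551 against 0.688 UMIs) and the higher one in plate 3 (0.669 against 0.525), so the shares at 0 are not at equal means. Against Atp5l and Atp5c1, subunits of ATP synthase with means over the 3 plates close to that of Cycs, the contrast was smaller. Cells at 3 or more UMIs numbered 5, 12 and 18 for Cycs, 6, 5 and 7 for Atp5l and 5, 10 and 9 for Atp5c1 in plates 1, 2 and 3. Cycs thus led in plates 2 and 3 and not in plate 1. These counts are not at equal means either. Cycs, Atp5l and Atp5c1 had means of 0.379, 0.540 and 0.532 UMIs in plate 1 and 0.669, 0.506 and 0.440 UMIs in plate 3. The highest thinned count of Cycs was 6, 8 and 7 UMIs in plates 1, 2 and 3, against 3, 5 and 3 for Uqcrh. Cells with 3 or more Cycs UMIs made up 5.13%, 2.44% and 12.9% of the Low cells and 6.25%, 10.9% and 5.56% of the High cells of the 3 plates. These shares overlapped, with plate 3 going the other way from plates 1 and 2. Summed over cells, Cycs had 142, 181 and 408 CPM in Low and 184, 381 and 283 CPM in High cells (log2 0.23, SE 0.24, edgeR adjusted p = 0.981). Over the cells of a plate the Spearman correlation of Cycs with all subunits together was -0.00, 0.06 and 0.02, a description without a test. For Uqcrh, which is itself 1 of the subunits summed, it was 0.11, 0.25 and 0.11.

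**Figure D5:**
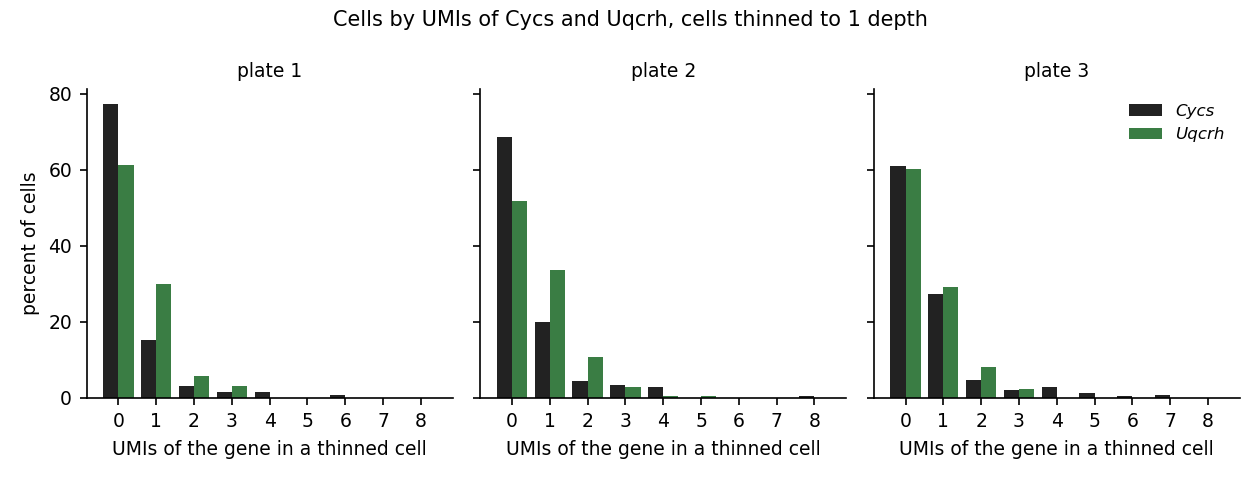
Percent of cells of each plate by the number of UMIs of Cycs (black) and Uqcrh (green) in cells thinned to 2118 UMIs. More cells have 0 UMIs of Cycs than of Uqcrh in plates 1 and 2, with nearly the same share in plate 3, and the counts of Cycs reach 6 to 8, against 3 to 5 for Uqcrh.

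Every thinned cell held respiratory chain transcripts. Subunit UMIs per cell averaged 19.0, 20.7 and 19.2 of 2118 in plates 1, 2 and 3, with a lowest value of 5 and a highest of 43, and 0 cells were without any. By class the means were 19.5, 20.7 and 19.7 in Low and 18.2, 20.6 and 19.2 in High cells. Within plates, this content and the CD5 signal had Spearman correlations over cells of -0.06, -0.00 and -0.00. The complexes hardly rose and fell together at this depth: mean correlations between pairs of complexes ran from -0.06 (II and III) to 0.14 (III and V). All subunits together had 0.16, 0.24 and 0.21 with the cytosolic ribosomal protein genes and 0.03, 0.02 and 0.11 with the protein genes of the mitochondrial genome. Cells of a plate share library and depth, and such weak values in sparse counts are no finding.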

How the data were processed

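Per the labels' protocols, libraries of sorted single cells were made with SORT-seq, which follows CEL-Seq2 and carries a UMI of 6 bases. No doublet caller was run. Reads were mapped with BWA to mm10, per the submitters' processing notes, in a version that no source used here gives. The deposited table holds expected counts, transcripts estimated by the authors from distinct UMIs and with no scaling. For CD5 the authors deposited the fluorescence signal of each well and its class. No source used here states how classes were set or which cells and genes were kept. Well names occur in several plates (285 of them), because barcodes mark wells. Spike-ins (19.6% of counts) were left out.

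Counts were summed by plate and class (9 sums) or by plate and CD5 bin (12 sums), rounded, and tested two-sided with edgeR 4.0.16 (filterByExpr, TMM, robust quasi-likelihood, R 4.3.3). The plate was a block since its classes share a library, which is where the pairing comes from. The labels do not tie plates to separate animals, and p-values then cover only the spread between sums of these plates, which may be technical. CPM by class are scaled by TMM factors, while the levels by plate are not. Spread was measured in cells thinned to 2118 UMIs, with a lowess trend of span 0.3, and 140 shallower cells were left out (Low 9, 5 and 10, Middle 22, 11 and 41, High 17, 9 and 16 in plates 1, 2 and 3). DESeq2 1.42.0 served as an alternative. On simulated counts with 200 changed genes the class fit found 51.6% of 2-fold and 21.5% of 1.5-fold changes, with 3 unchanged genes among 74 calls (4813 genes). The trend fit, on 5019 genes, found 99.0% and 90.9% of slopes of these sizes per doubling of CD5, with 12 unchanged genes among 202 calls.

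The members and lists were chosen with earlier results of these data known. The text names the 2 most abundant genes per complex, genes of smallest p per direction (4 between classes, 2 in the trend), the 3 highest and 3 lowest in spread, isoform sets, matches that are no subunit, and 2 genes per list. Alternatives are in the closing section. Gene positions are from GENCODE M21. Protein sequences were not used here.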

Additional observations from a re-analysis of the deposited data

How the results depend on the processing

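The count of respiratory chain genes past the threshold was 0 between the classes and 0 in the trend under every alternative run (13 and 14). Over all genes the class count of 3 became 5 with the DESeq2 Wald test, 5 at a mean of at least 50 counts, 5 in cells thinned to 1 depth, 14 without a filter, 0 with no replicate block (192 at an unadjusted p under 0.05) and 0 after leaving out the cell richest in Kcnq1ot1 and related transcripts. Dispersion without robust fitting, added after seeing the data, gave 9, Cd5 among them. The trend count of 3 became 6, 4, 3, 10, 0, 0 and 6 in the same order, and 0 with 6 bins, with 164 at an unadjusted p under 0.05 for no replicate block. Leaving out a plate gave 0 to 22 between the classes and 0 to 18 in the trend, the highest without plate 2. The Cox5a log2 fold change of -0.45 reversed to 0.021 in cells thinned to 1 depth (edgeR adjusted p = 0.990). The complex V log2 ratio of -0.06 moved to -0.17 there. With chromosome M and Rn45s left out of the total, median levels became 87.0 (I), 77.5 (II), 122 (III), 168 (IV) and 247 CPM (V), and with all matches of the rule 58.7 (I), 153 (IV) and 185 CPM (V). The median spread residual of -0.14 moved to -0.25 thinned to the median depth and -0.32 without thinning. The cause of these shifts was not tested. On simulated counts, with the same dispersion for every gene and no plate effect, the class test found 21.5% of 1.5-fold changes. Many changes of that size were thus missed there. The rate in these data was not measured.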
